A study of Mus musculus with 10 samples.

Results

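Retinoic acid is a signal made from vitamin A, and 10 mouse genes that make it, read it or destroy it were examined for binding by the homeodomain transcription factor OTX2. They are the receptor genes Rara, Rarb, Rarg and Rxra, the synthesis genes Rdh10 and Aldh1a2, the brake gene Dhrs3, and the degradation genes Cyp26a1, Cyp26b1 and Cyp26c1. The genes were picked by name, and all 10 of 10 were found among 21887 protein-coding genes with a position on mm10. A peak was counted for a gene when its centre lay within 50 kb of the gene or inside it, and the nearest gene named by the authors for each peak is given beside that.

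OTX2 binding was mapped by CUT&RUN, in which an antibody brings a nuclease to a protein on DNA so that nearby fragments are released and sequenced. The libraries that bear on these genes are all from mouse lines of a BL6/129 hybrid background. Epiblast stem cells (EpiSC) of the line 7H OTX2-dTAG-EGFP, in which OTX2 carries an HA tag, gave 2 anti-HA and 3 IgG samples and were grown in N2B27 medium. Activin A was present there at 20 ng/ml, FGF2 at 12.5 ng/ml and NVP at 175 nM. Definitive endoderm (DE) of the same line gave 2 anti-HA samples and 1 IgG sample. The DE cells were made in CDM medium in 2 steps. The first lasted 16 h, with Activin A at 40 ng/ml plus CHIR at 3 µM. The second lasted 24 h, with Activin A at 100 ng/ml plus LDN at 100 nM, and live cells were then sorted. DE of the parental line 5.8, made the same way, gave 1 anti-HA and 1 IgG sample. Both tagged states come from 1 tagged line, so differences between lines could not be seen. The authors deposited 1 pooled HA peak list per state, 42711 peaks in DE and 6319 in EpiSC, without heights or read depths. No sample therefore has a value of its own, no difference between the states could be tested, and no p-value is given. Peak lists hold no expression, so cell identity was not checked against markers.

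Retinol is oxidised to retinal by RDH10, and retinal to retinoic acid by ALDH1A2. DHRS3 turns retinal back into retinol, and the CYP26 enzymes inactivate retinoic acid. The receptors RARA, RARB and RARG bind DNA as dimers with an RXR at direct repeats of a short half-site, called retinoic acid response elements. Retinoic acid gives posterior identity to the early embryo and later patterns the foregut and pancreas, while CYP26 enzymes keep its level low in the anterior region where OTX2 acts. Rarb, Cyp26a1 and Dhrs3 are themselves known targets of retinoic acid.

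Promoter sequences are shown first for the members on which a peak lay, since there the bound bases can be read. RefSeq (GRCm38.p6, the assembly of mm10) gave 16 promoter windows for 9 of the members, each running from 250 bases before a transcript start to 50 after it, and none was matched for Rdh10. A peak overlapped a window of 3 members, Rara, Rarg and Dhrs3. A DE peak did so at Rara and Dhrs3, against 27.3% of 17492 protein-coding genes, and an EpiSC peak at Rara and Rarg, against 9.79%. The sequences are written on the strand of the gene, 5′ to 3′, and capitals mark the bases inside the peak. The Rara window (chr11:98937446-98937745, plus strand) carries a shared peak, shown with the DE interval. The EpiSC interval lies inside it. The Dhrs3 window (chr4:144892577-144892876, plus strand) carries a DE-only peak. The Rarg window (chr15:102246451-102246750, minus strand) is that of an internal start and carries an EpiSC-only peak.
Rara: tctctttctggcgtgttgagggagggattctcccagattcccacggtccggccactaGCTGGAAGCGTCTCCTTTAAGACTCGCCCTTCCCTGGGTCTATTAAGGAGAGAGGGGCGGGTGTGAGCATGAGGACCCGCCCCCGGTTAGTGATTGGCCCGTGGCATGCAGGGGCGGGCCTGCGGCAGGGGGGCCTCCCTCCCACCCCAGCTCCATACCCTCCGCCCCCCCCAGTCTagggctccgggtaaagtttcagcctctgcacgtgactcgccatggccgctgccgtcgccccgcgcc
Dhrs3: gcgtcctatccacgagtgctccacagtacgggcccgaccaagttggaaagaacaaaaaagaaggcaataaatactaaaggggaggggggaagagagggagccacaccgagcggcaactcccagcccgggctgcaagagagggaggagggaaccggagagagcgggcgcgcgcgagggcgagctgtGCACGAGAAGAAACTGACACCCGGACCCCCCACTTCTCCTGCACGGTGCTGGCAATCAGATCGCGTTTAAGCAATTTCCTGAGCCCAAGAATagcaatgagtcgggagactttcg
Rarg: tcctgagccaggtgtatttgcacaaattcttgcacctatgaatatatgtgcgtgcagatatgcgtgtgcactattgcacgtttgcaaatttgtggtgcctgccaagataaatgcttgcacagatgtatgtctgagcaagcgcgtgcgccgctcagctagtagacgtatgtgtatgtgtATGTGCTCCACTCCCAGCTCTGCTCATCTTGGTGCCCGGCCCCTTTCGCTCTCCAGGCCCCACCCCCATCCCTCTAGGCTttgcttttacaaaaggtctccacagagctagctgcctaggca

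With the start base counted as 0, the DE peak at Rara ran from -193 to -17 and the EpiSC peak from -121 to -40. At Dhrs3 the DE peak ran from -65 to 26, across the start, and at Rarg the EpiSC peak ran from -72 to 7. The core word of the OTX2 class of homeodomains, TAATCC (read as GGATTA on the other strand), was in none of these 3 windows, and neither was the variant TAAGCC. On either strand, TAATCC was in 7.06% of all 32851 promoter windows in 7.98% of the 6027 that a DE peak overlapped and in 9.43% of the 2079 that an EpiSC peak overlapped. For TAAGCC the shares were 9.48%, 10.95% and 14.05%. Of the 16 member windows, only that of Cyp26c1 held TAATCC, and no peak lay on it.

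Response elements for the receptors were looked for in the same windows, because Cyp26a1 and Rarb are textbook targets. A direct repeat of AGGTCA or AGTTCA with 5 bases between, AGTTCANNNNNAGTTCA on the strand opposite to the gene, was found at Cyp26a1 and in 0.0396% of all windows. When GGGTCA and GGTTCA were also taken as half-sites, a choice made after seeing the data, Rarb held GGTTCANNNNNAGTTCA as well, and 0.0974% of all windows held such a repeat. Both repeats contain matches to the half-site AGTTCA, which alone was in 14.0% of all windows. Direct repeats of AGGTCA or AGTTCA with 2 bases between were in none of the 16 member windows and in 0.0396% of all windows. The repeats with 5 bases between are shown in capitals with 10 bases on both sides, on the strand of the gene. They lie at -32 to -16 from the start of Cyp26a1 (window chr19:37697558-37697857) and at -53 to -37 from that of Rarb (window chr14:16575427-16575726).
Cyp26a1: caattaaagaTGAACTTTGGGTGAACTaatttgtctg
Rarb: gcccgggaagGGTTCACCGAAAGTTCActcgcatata
No OTX2 peak of either state overlapped these 2 windows. The closest DE peak centre was 2662.5 bp from the start at Cyp26a1 and 659 bp from it at Rarb.

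All 10 members had at least 1 DE peak within 50 kb, as did 82.8% of the 21887 protein-coding genes. An EpiSC peak was found for 8 of the 10, against 40.8% of those genes. Cyp26a1 and Cyp26c1 are neighbours with 4417 bp between them, so their counts rest on the same peaks. In total 87 DE peaks and 9 EpiSC peaks lay in the territory of the members, a ratio of 9.67, while the whole lists had a ratio of 6.76. Rarb holds 30 of the 87, and without it 57 DE and 8 EpiSC peaks remained, a ratio of 7.125. The member peaks were 0.204% of the DE list (95% Wilson interval 0.165 to 0.251%) and 0.142% of the EpiSC list (0.0750 to 0.270%). These intervals overlap. All such intervals describe counting error alone, and peaks that lie close together are not independent. Every member had more DE than EpiSC peaks, a pattern shared by 79.2% of protein-coding genes. When the DE list was reduced to its 6319 widest peaks, as many as the EpiSC list has, 17 DE peaks remained at 7 of the members, against 34.8% of protein-coding genes with such a peak. More DE than EpiSC peaks were then left only at Rarb (8 and 1), Cyp26a1 and Cyp26c1 (5 and 1 each) and Cyp26b1 (1 and 0). Rara (1 and 2), Rarg (0 and 2) and Rdh10 (0 and 1) had fewer DE than EpiSC peaks, and the other members had equal counts.

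The receptor gene Rarb had the most peaks, with 30 in DE and 1 in EpiSC. Rara, the broadly expressed receptor, had 14 and 2. The 2 CYP26 neighbours had 13 and 1 each. Dhrs3 had 9 and 1, and Rarg 8 and 2. Rxra, the common partner of the receptors, had 7 and 1. Fewer DE peaks were counted at Cyp26b1 (3, none in EpiSC), Rdh10 (2 and 1) and Aldh1a2 (1, none in EpiSC). Counts of 10 or more DE peaks, found at Rarb, Rara, Cyp26a1 and Cyp26c1, occurred in 6.51% of protein-coding genes.

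**Figure D1:**
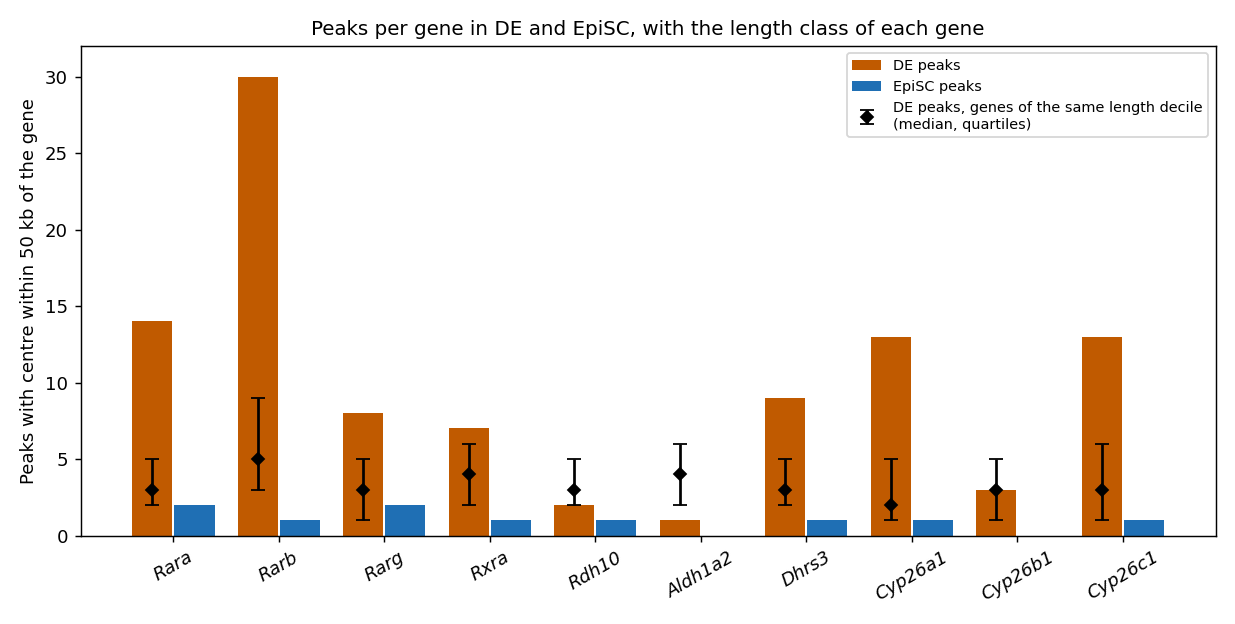
Number of OTX2-HA peaks with their centre within 50 kb of each gene, in DE (orange bars) and EpiSC (blue bars), each from 1 pooled list. Diamonds with bars give the median and quartiles of DE peaks over protein-coding genes of the same length decile, and 7 of the 10 members stand above the upper quartile. Cyp26a1 and Cyp26c1, both among the 7, rest on the same peaks.

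Longer genes have larger territories, so each member was set beside the protein-coding genes in its decile of gene length. The Rarb gene spans 651493 bp, and its 30 DE peaks compare with a median of 5 (quartiles 3 and 9) in the longest decile, where 0.503% of genes had at least as many. That decile runs from 108526 to 2390387 bp, so it matches the length of Rarb only loosely. Per 100 kb of territory Rarb had 3.99 DE peaks, which 25.1% of all protein-coding genes reached or passed. Cyp26a1 is only 3799 bp long and had 12.5 DE peaks per 100 kb, which 0.320% of protein-coding genes reached. Its 13 peaks compare with a median of 2 in its decile, where 1.05% of genes had as many. Within 10 kb of the gene the count was 2 for Cyp26a1 and 1 for Cyp26c1, and by the authors' nearest gene it was 11 and 6. Rara had 9.51 per 100 kb and a count that 0.686% of its decile reached, and for Cyp26c1 the values were 12.0 and 1.19%. Dhrs3, Rarg and Rxra had 6.63, 6.53 and 3.75 per 100 kb, and 6.53%, 11.2% and 22.9% of their deciles had as many peaks. Cyp26b1 stood at the median of its decile, with 3 peaks. Rdh10 and Aldh1a2 lay below theirs, since 76.9% and 91.9% of genes of like length had as many DE peaks or more. The median over the 10 members was 5.26 DE peaks per 100 kb, against 2.23 over all protein-coding genes (quartiles 0.898 and 3.997). For EpiSC peaks the median was 0.763 per 100 kb over the members, and it was 0 over all genes (upper quartile 0.899). The same 13 DE peaks and 1 EpiSC peak enter both member medians under Cyp26a1 and again under Cyp26c1. These medians therefore rest on fewer separate loci than genes, and medians with that locus entered once were not computed.

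**Figure D2:**
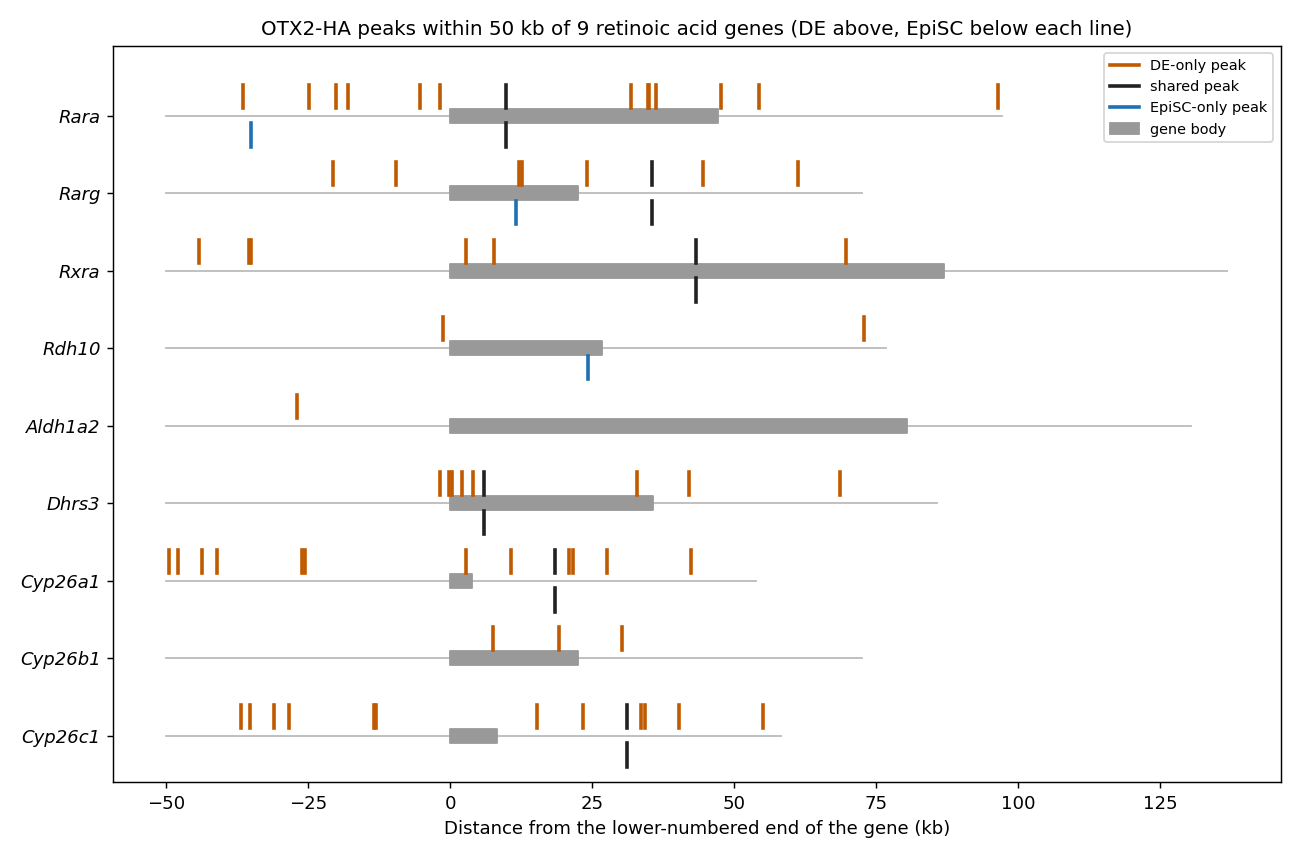
Position of every DE peak (above each line) and EpiSC peak (below) within 50 kb of 9 members, in kb from the end of the gene with the lower coordinate; grey boxes are gene bodies. DE-only peaks are orange, shared peaks black and EpiSC-only peaks blue; most of the peaks of Cyp26a1 and Cyp26c1 lie outside the gene bodies.

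Rarb encodes the receptor whose transcription retinoic acid itself induces. Of its 30 DE peaks, 29 lay inside the annotated gene and 1 outside, and all 30 were DE-only, as were 88.3% of the DE list. They were not spread evenly. RefSeq gives a promoter window for an internal start on the minus strand, at position 16575476 of chromosome 14, and 15 of the 30 peaks lay within 50 kb of it. That is a number reached by 17, Rarb included, of the 17492 protein-coding genes with a start in the table, where the median was 2. Within 5 kb of the start lay 4 peaks. The 2 widest of all members were among them, 720 bp at chr14:16572579-16573298 and 602 bp at chr14:16573473-16574074, with centres 2537.5 and 1702.5 bp downstream of the start. Only 0.115% and 0.412% of all DE peaks were at least as wide. On the other side of the start, peaks of 99 and 189 bp had their centres 659 and 2833 bp upstream. From the start to the 3′ end of the gene there were 13 peaks, or 8.99 per 100 kb. The first 100 kb upstream of the start held 6 peaks, and the next 100 kb held 9. Among those 9 were peaks of 512 bp (chr14:16742288-16742799) and 463 bp (chr14:16678364-16678826). In the remaining 306855 bp up to the 5′ end of the annotated gene there was 1 peak, or 0.326 per 100 kb. Rarb had 1 EpiSC peak, 217 bp wide at chr14:16434866-16435082, near the 3′ end of the gene. It overlapped no DE peak, but a DE peak of 188 bp lay 175 bp from it. In the authors' deposited table, Rarb is the nearest gene of 25 of the 30 DE peaks, and the other 5, like the EpiSC peak, were given to the neighbour Top2b.

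**Figure D3:**
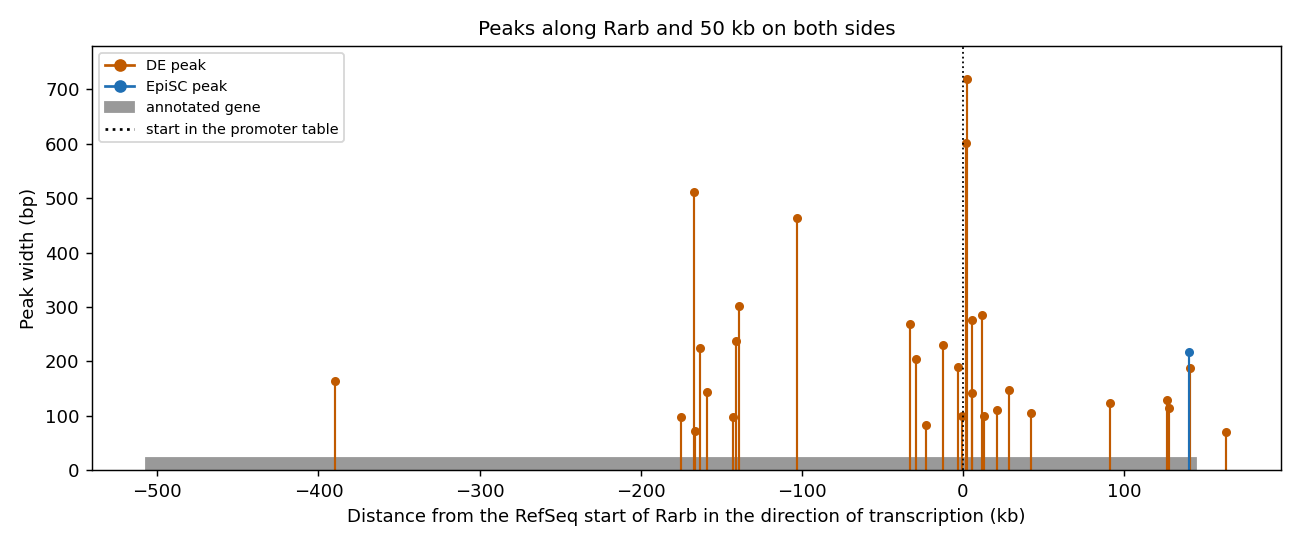
Width in bp of each peak along Rarb, against the distance of its centre in kb from the RefSeq start, in the direction of transcription; the grey bar is the annotated gene. DE peaks (orange) gather around the start and in a second stretch far upstream of it, and the 2 widest, 720 and 602 bp, lie just downstream of the start.

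Rara had 14 DE peaks, of which 5 lay inside the gene, 6 upstream and 3 downstream. The widest, 541 bp at chr11:98925810-98926350, lay 1720 bp upstream of the 5′ end of the annotated gene, and 0.780% of DE peaks were as wide. The shared promoter peak shown above was 177 bp wide in DE and 82 bp in EpiSC. The authors' table gives 8 of the 14 DE peaks to another gene than Rara, among them Cdc6, Gjd3 and Top2a. One of these covers the promoter window of Top2a, a topoisomerase gene. A second EpiSC peak, 124 bp at chr11:98892583-98892706, lay 35155.5 bp upstream of Rara. It was EpiSC-only, with the nearest DE peak 1222 bp away, and Wipf2 is its nearest gene in the authors' table.

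Rarg, a receptor gene active in early embryos, had 8 narrow DE peaks of 63 to 177 bp. Of these, 2 lay inside the gene, 4 upstream and 2 downstream. The EpiSC peak on its internal promoter, 80 bp at chr15:102246493-102246572, had no DE counterpart, although a DE peak of 120 bp lay 442 bp away. The shared peak of this locus, 194 bp in EpiSC and 125 bp in DE, lay 12952 bp (DE centre) upstream of the gene. It covered part of the promoter window of the gene Gm9918. DE peaks also covered promoter windows of Mfsd5 and Espl1, so 3 of the 8 DE peaks counted for Rarg lay on promoters of other genes, and the authors' table gives 3 to Rarg.

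Rxra had 7 DE peaks, all with Rxra as nearest gene in the authors' table. Inside the gene lay 4, and the other 3 were upstream, where a pair of 360 and 239 bp lay 35489.5 and 35115 bp from the gene. The shared peak was intragenic, 142 bp in DE (chr2:27719731-27719872) and 92 bp in EpiSC.

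Rdh10 and Aldh1a2, of synthesis, had 2 and 1 DE peaks. At Aldh1a2, the main retinoic acid-making enzyme of the embryo, the single DE peak was 93 bp wide, 26893 bp upstream of the gene, with Aqp9 as its nearest gene in the authors' table. No peak of either state lay inside this gene of 80455 bp. Rdh10 had DE peaks of 111 and 130 bp, 1187 and 46250.5 bp from its ends, and neither carries Rdh10 in the authors' table. Its EpiSC peak was the widest of the EpiSC peaks at the members, 231 bp at chr1:16130057-16130287 inside the gene. It was EpiSC-only, and the nearest DE peak was 25307 bp away.

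Most peaks of Dhrs3 lay at its 5′ end. Of 9 DE peaks, 6 had centres between 2080 bp before and 5334 bp after a RefSeq start. They were 69, 94, 92, 159, 221 and 275 bp wide, in order along the gene. The third covers the start printed above, and the last (chr4:144898334-144898608) was shared with an EpiSC peak of 112 bp. Beyond them the gene had 1 more peak inside and 2 downstream.

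The Cyp26a1 and Cyp26c1 locus on chromosome 19 held 13 DE peaks, all within 50 kb of both genes. None lay in the gap between the genes, none inside Cyp26c1, and 1 of 76 bp inside Cyp26a1. On one side, 6 peaks lay upstream of Cyp26c1, with centres 13600.5 to 37491.5 bp before its start and widths of 82 to 373 bp. On the other, 6 peaks lay downstream of Cyp26a1, with centres 10693 to 42306.5 bp past its start and widths of 77 to 520 bp. The widest, 520 bp at chr19:37739855-37740374, was DE-only, and 0.972% of DE peaks were as wide. The shared peak of the locus was 409 bp in DE (chr19:37716070-37716478) and 151 bp in EpiSC. The authors' table gives Cyp26a1 a further 4 DE peaks of 74 to 306 bp, centred 112772.5 to 158860.5 bp past its end, and 1 of them is shared with an EpiSC peak of 83 bp. Cyp26b1, on chromosome 6, had 2 DE peaks inside the gene, of 76 and 107 bp, and a wider one of 263 bp at chr6:84601585-84601847, 7808 bp upstream. The EpiSC peak nearest to the last was 473270 bp away. The authors' table adds 1 more DE peak, of 109 bp, 63345 bp upstream.

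Of the 9 EpiSC peaks at the members, 5 were shared with DE (55.6%, Wilson interval 26.7 to 81.1%). In the whole EpiSC list 78.8% were shared, which lies inside that interval. Shared EpiSC peaks were those at Cyp26a1 and Cyp26c1 (the same peak), Rara, Rarg, Rxra and Dhrs3. The EpiSC-only peaks were at Rara, Rarb, Rarg and Rdh10, so 4 of the 10 members had one within 50 kb, as did 10.7% of protein-coding genes. At Rara, Rarb and Rarg a DE peak lay within 2 kb of the EpiSC-only peak, which held for 21.6% of the 1339 EpiSC-only peaks of the list (19.5 to 23.9%). From the other side, 5 of 87 DE peaks were shared (5.75%, 2.48 to 12.8%), and 11.7% were in the whole DE list, again inside the interval. At 4 of the 5 shared sites the EpiSC interval lay inside a wider DE interval, and the DE interval was 1.54 to 2.71 times as wide. Rarg was the exception, with a DE interval 0.644 times as wide, inside the EpiSC one. Over the list, the DE partner was wider for 78.8% of 4980 shared EpiSC peaks, and 61.8% lay inside it.

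**Figure D4:**
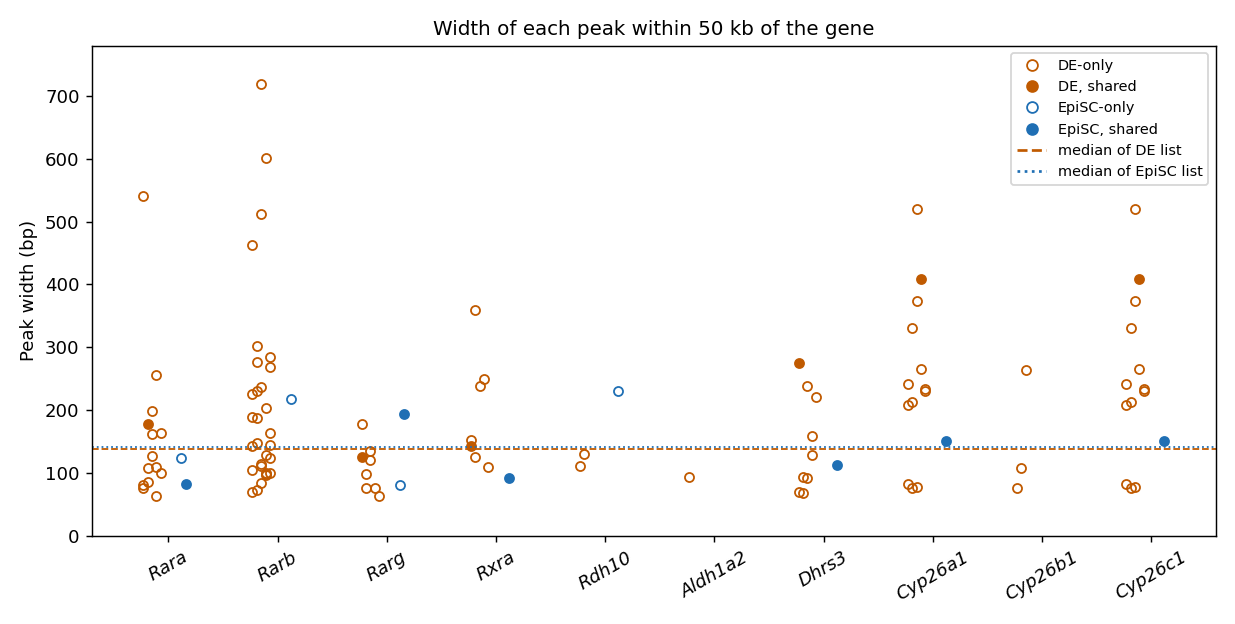
Width in bp of every peak within 50 kb of each member, in DE (orange) and EpiSC (blue); filled points are shared peaks, and lines give the medians of the whole lists. Most points lie under 300 bp, and the widest are DE-only peaks at Rarb, Rara and the Cyp26a1 and Cyp26c1 locus.

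Width at the members was close to that of the lists. The median was 142 bp over 87 DE peaks (quartiles 98.5 and 238 bp) and 138 bp over the DE list. For the 9 EpiSC peaks it was 124 bp (92 and 194 bp), against 141 bp over the EpiSC list. Peaks of 300 bp or more made up 11 of the 87 DE peaks (12.6%, 7.21 to 21.2%) and 9.55% of the DE list, a share inside that interval. They were at Rarb, Rara, Rxra and the Cyp26a1 and Cyp26c1 locus. No EpiSC peak at a member reached 300 bp (0 of 9, interval up to 29.9%), and 8.50% of the EpiSC list did. Of the 11 wide DE peaks, 1, at Cyp26a1, overlapped an EpiSC peak, as did 32.9% of all DE peaks of that width.

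Position relative to genes was then compared. A centre within 1 kb of a RefSeq start of any gene was found for 11 of 87 DE peaks (12.6%, 7.21 to 21.2%), against 16.2% in the DE list, and for 3 of 9 EpiSC peaks, against 33.4%. Inside a member gene lay 48 of the 87 DE peaks (55.2%, 44.7 to 65.2%), and the genes make up 52.1% of the territory searched. Much of this is Rarb: without it, 19 of 57 peaks were inside a gene (33.3%, 22.5 to 46.3%) and the genes make up 29.3% of the territory. These pooled shares hide differences between the genes. The density of DE peaks was higher inside the gene than in its 50 kb flanks at 7 of the 10 members and at 24.6% of protein-coding genes. That share counts genes without a DE peak as not higher, and it was matched neither for gene length nor for number of peaks. The members had a median of 8.5 DE peaks, against 3 over protein-coding genes, so no preference for gene bodies is read from it. Among the 7 were Rarb with 4.45 against 1 per 100 kb, Dhrs3 with 5 peaks inside and 4 outside, and Cyp26b1 with 8.89 against 1. At Cyp26a1 the higher density inside rests on 1 peak, against 12 in the flanks. Cyp26c1, Aldh1a2 and Rdh10 had no DE peak inside the gene and 13, 1 and 2 outside. The control lists are short, with 202, 149 and 200 peaks in EpiSC IgG and 14 in the parental anti-HA sample, and 35 of the 42711 DE peaks and 0.791% of all EpiSC peaks overlapped one. None of the 87 DE and 9 EpiSC peaks at the members did, a count to be read against those small shares. No peak of those 4 lists lay within 50 kb of a member. None of the 4 came from a DE IgG sample, so the DE peaks were not set against IgG of their own state. IgG replicates 2 and 3 are not independent, since all 149 intervals of replicate 2 recur unchanged in replicate 3.

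Other genes of the pathway were counted from lists, to be read against 82.8% of protein-coding genes with a DE peak, 40.8% with an EpiSC peak and a median of 2.23 DE peaks per 100 kb. Among 33 genes of retinoid enzymes and transport, 28 had a DE peak (84.8%) and 16 an EpiSC peak (48.5%), with a median of 3.41 DE peaks per 100 kb. Crabp2, which carries retinoic acid to the nucleus, had 11 DE and 7 EpiSC peaks. Dhrs4 had 9 and 2, Rbp4, the retinol carrier of blood, 9 and 0, and the lipoprotein receptor gene Scarb1 9 and 2. The genes without a DE peak were Aldh1a1, Aldh1a7, Crabp1, Lrat and Rpe65. Together with the single peak at Aldh1a2 and 4 at Aldh1a3, the retinal dehydrogenase family Aldh1a had 0 to 4 DE peaks per gene. The median over all protein-coding genes was 3, so no trait of the family is read from this range. Among 22 receptors and cofactors, 21 had a DE peak (95.5%) and 8 an EpiSC peak (36.4%), and the median of 2.31 per 100 kb was close to that of all genes. High counts were found at Rora (17 DE peaks, none in EpiSC, in a gene of 734843 bp), Ppard (12 and 3) and the coactivator gene Ncoa3 (10 and 1). Only Crebbp had no DE peak. Among 23 genes known as targets of retinoic acid, 22 had a DE peak (95.7%) and 8 an EpiSC peak (34.8%), with a median of 3.90 per 100 kb. Foxa1, a transcription factor gene of endoderm, had 12 DE peaks but none in EpiSC, while Fgf8 had 11 and 2, and Hoxb1 had 11 and 1. Tshz1 was the target without a DE peak. More DE than EpiSC peaks were found at 25 of 33, 20 of 22 and 22 of 23 genes of these lists, against 79.2% of protein-coding genes. Genes of a list that lie close together can share peaks but were counted separately, so these shares can rest on fewer separate loci than genes.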

How the data were processed

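Anti-HA and IgG CUT&RUN libraries of 500000 cells per sample were made, per the labels' protocols. The submitters' processing notes name the build mm10 and Bowtie2 2.3.5.1, SAMtools 1.14, Picard 2.26.10, bedtools 2.30 and MACS2 2.2.6, without their roles. The files deposited by the authors hold peak positions (start and end, other unit), merged over 50 bp per the file names; no score or signal was used. Both HA replicates of a state are tied to 1 list. The label of EpiSC HA replicate 2 names the DE list beside the EpiSC nearest-gene table, and the tagged DE IgG label names the DE list too. The DE list was read as belonging to both DE HA samples and the EpiSC list to both EpiSC HA samples, so which HA libraries entered each list rests on that reading. The tables with nearest genes hold the same intervals (42711 and 6319). Starts were converted to 1-based positions. The authors' marks of changed genes were not used.

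Counts, shares with 95% Wilson intervals and medians were computed with Python 3.11.15, pandas 2.3.3, numpy 2.4.6 and scipy 1.17.1. Peaks were shared at an overlap of 1 bp or more. Genes came from RefSeq GRCm38.p6. Deciles of gene length were taken over protein-coding genes. Promoter windows of 300 bases were checked for strand: 1629 of 1629 overlapping pairs on opposite strands had equal bases after reverse complementing. Counting was tested on simulated data: 200 of 200 genes gave the planted count. Members, lists and measures were chosen with earlier results of these data known. All 10 members are named; of each list, the 4 genes with most DE peaks and, where 5 or fewer, those with none, apart from 2 that are not reported here, then every EpiSC peak and the widest DE peak of each member. Read depth is unknown.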

Additional observations from a re-analysis of the deposited data

How the results depend on the processing

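No paired analysis was possible because each state has 1 list for both of its HA replicates, and for the same reason no replicate could be left out. Of 74 values of the 9 summary measures under other settings, 69 stayed within 1.5 times the count or within the interval of the value given. Some of the 69 could not move, as set out below. The 5 others were these. With only the 6319 widest DE peaks kept (259 bp or wider), which selects on width, 17 DE peaks remained, their median width was 360 bp, 22.2% of the EpiSC peaks were shared, and the median density was 0.708 DE peaks per 100 kb. Without Rarb, a setting chosen after seeing the data, 57 DE peaks remained. Other settings were windows of 10 and 100 kb (60 and 102 DE peaks), the authors' nearest gene (70 DE peaks), an equal minimum width of 78 bp, peaks under 1 kb apart joined, stricter or looser overlap, and leaving out peaks on IgG or parental peaks. The last removed none at the members, so it says nothing about stability. The minimum of 78 bp and the cut to the widest DE peaks left the EpiSC list unchanged. Its counts and widths could therefore not move under these settings. Sharing of the EpiSC peaks was judged against a wide interval (26.7 to 81.1%), in which 77.8% under looser overlap still counted as unchanged. For counts of single members, 107 of 140 stayed within 1.5 times. Within 10 kb, DE counts fell from 14 to 9 at Rara, 8 to 4 at Rarg, 7 to 4 at Rxra, 2 to 1 at Rdh10 and 1 to 0 at Aldh1a2. Those of Cyp26a1 and Cyp26c1 fell too, as given above, while Rarb, Dhrs3 and Cyp26b1 stayed within 1.5 times. The density was not computed for the authors' nearest gene, which has no window. Unknown read depth limits every comparison of counts between the states.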
